A study of Mus musculus with 157 samples.

Results

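The subject here is 983 stretches of the mouse genome where the transcription factors TFEB and TFE3 both gained binding when macrophages took up monosodium urate crystals, and where the histone methyltransferase DOT1L did not. They are the peaks of the authors' list of gained TFEB binding, 5667 in all, that share at least 1 base with a gained TFE3 peak (list of 4446) and no base with a gained DOT1L peak (list of 4756). Of the remaining gained TFEB peaks, 869 overlapped both lists, 1338 overlapped gained DOT1L binding without TFE3, and 2477 overlapped neither. The peaks were thus selected on the gain of TFEB and TFE3 binding with the crystals against buffer and on the lack of a DOT1L gain, so that gain is no finding and is not tested. The nearest gene named by the authors for each of the 983 peaks gave 820 genes.

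The cells were bone marrow-derived macrophages, which are bone marrow cells grown in culture with the growth factor M-CSF until they become macrophages. The TFEB list rests on 2 libraries from cells given monosodium urate crystals (MSUc, the crystals of gout) and 3 from cells given the buffer PBS. The TFE3 list rests on 1 MSUc library and 2 PBS libraries, and the DOT1L list on 3 and 3. 1 of the TFEB MSUc libraries carries the label of an RNA sample. The lists hold no value per library, so the spread of binding between libraries is not known, and for TFE3 there was no second MSUc library.

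Expression was read from 4 RNA-seq experiments that the choice of peaks did not use. A time course compared MSUc with PBS at 10 and 30 minutes and 1, 2 and 5 hours, with 2 libraries per group. A second experiment compared libraries titled Tfe3WT and Tfe3KO, 3 per group, given PBS, MSUc, calcium pyrophosphate dihydrate crystals (CPPD, the crystals of pseudogout) or silica. Another compared TfebTg cells, which carry a Tfeb transgene whose promoter is not given, with TfebWT cells, in PBS (2 TfebWT and 3 TfebTg libraries) and with MSUc (3 and 3). The last compared vehicle with SGC0946, an inhibitor of the DOT1L enzyme kept on the cells at 1 uM since day 0 of culture, in PBS (3 vehicle and 2 SGC0946 libraries) and with MSUc (3 and 3). Particles were given at 250 ug/mL, to C57BL/6 or Tfeb-Tg marrow where the protocol names the source. The culture of the Tfe3 cells is not described, and exposure times in the RNA experiments other than the time course are not given. Nothing says that the RNA libraries of a group came from separate animals, so p-values measure the spread between these libraries, which may be technical.

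TFEB and TFE3 belong to the MiT/TFE family of basic helix-loop-helix leucine zipper factors. They bind short E-box sequences as homodimers or heterodimers, and are best known for switching on genes of lysosomes and autophagy. In fed cells mTORC1 phosphorylates them on the lysosome surface and holds them in the cytoplasm. When lysosomes are stressed or damaged, or folliculin and its FNIP partners are engaged, they lose that phosphorylation and enter the nucleus. DOT1L methylates lysine 79 of histone H3 in the bodies of transcribed genes and works with elongation factors of the AF4 and ELL families.

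No genome sequence was used here, so letters can be shown only where a peak falls inside the RefSeq windows around gene starts (GRCm38.p6, the same assembly as mm10). Each window runs 300 bases across a start site, and 9 windows overlapped one of the peaks. Sequences of 7 peaks follow on the plus strand, all that could be printed, to show what E-box letters look like where TFEB and TFE3 were both gained. Capitals mark 3 motifs, searched on both strands. The first is the palindromic E-box CACGTG. The second is the E-box CATGTG, which reads CACATG on the opposite strand. The last is TGAGTCA, the AP-1 motif bound by FOS and JUN, which reads TGACTCA on the opposite strand. The stretches cover chr7:75822405-75822587 near Klhl25, chr12:3894637-3894866 near Dnmt3a, chr3:79852772-79853018 upstream of Tmem144, chr15:38602271-38602485 near 2310043O21Rik, chr5:113873106-113873328 near Coro1c, chr14:22801411-22801614 near 4930405A10Rik and chr6:55536878-55537092 near Adcyap1r1.
Klhl25: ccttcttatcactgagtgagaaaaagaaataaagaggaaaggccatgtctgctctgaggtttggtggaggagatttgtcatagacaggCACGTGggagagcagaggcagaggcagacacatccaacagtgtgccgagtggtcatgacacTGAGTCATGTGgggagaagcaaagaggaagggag
Dnmt3a: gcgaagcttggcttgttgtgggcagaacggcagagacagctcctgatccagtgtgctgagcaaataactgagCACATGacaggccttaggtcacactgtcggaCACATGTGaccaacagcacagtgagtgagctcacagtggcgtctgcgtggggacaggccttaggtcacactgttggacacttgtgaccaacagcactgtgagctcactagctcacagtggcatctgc
Tmem144: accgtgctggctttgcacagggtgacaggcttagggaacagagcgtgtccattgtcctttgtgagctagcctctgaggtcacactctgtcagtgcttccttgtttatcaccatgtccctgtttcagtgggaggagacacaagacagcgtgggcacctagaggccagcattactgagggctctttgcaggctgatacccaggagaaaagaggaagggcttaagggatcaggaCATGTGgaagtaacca
2310043O21Rik: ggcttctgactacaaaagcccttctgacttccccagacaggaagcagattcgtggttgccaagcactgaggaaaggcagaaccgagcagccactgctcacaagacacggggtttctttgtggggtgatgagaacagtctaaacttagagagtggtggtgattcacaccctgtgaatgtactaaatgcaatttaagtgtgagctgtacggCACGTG
Coro1c: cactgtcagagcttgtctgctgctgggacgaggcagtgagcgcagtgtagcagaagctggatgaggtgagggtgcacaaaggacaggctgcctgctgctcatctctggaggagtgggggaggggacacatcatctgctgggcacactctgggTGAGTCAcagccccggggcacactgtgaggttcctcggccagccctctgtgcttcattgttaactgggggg
4930405A10Rik: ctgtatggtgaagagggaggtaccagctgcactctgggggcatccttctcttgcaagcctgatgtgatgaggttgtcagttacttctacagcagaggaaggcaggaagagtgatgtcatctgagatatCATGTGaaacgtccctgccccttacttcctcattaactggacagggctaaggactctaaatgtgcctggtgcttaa
Adcyap1r1: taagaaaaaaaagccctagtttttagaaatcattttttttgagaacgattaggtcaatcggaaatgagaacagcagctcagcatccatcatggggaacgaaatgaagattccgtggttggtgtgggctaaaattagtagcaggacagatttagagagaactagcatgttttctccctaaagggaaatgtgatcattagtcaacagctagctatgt
The Klhl25 stretch holds a CACGTG, and a CATGTG that overlaps an AP-1 motif. In the Dnmt3a stretch CATGTG appears 3 times counting both strands, and 2 of these matches overlap each other. The Tmem144 stretch holds 1 CATGTG, the 2310043O21Rik peak 1 CACGTG at its very end, and the Coro1c stretch an AP-1 motif and neither E-box. The 4930405A10Rik stretch holds 1 CATGTG, and the Adcyap1r1 stretch none of the 3 motifs. Over the 9 windows, 2 held CACGTG, 5 held CATGTG on either strand and 2 held AP-1. Of these windows 2 lay over the same Tmem144 peak. Of 16 windows at gained TFEB peaks with DOT1L 2, 5 and 5 held these motifs, and of 10 at peaks with TFEB alone 0, 5 and 3. Of all 32851 RefSeq windows of that length the shares were 7.15%, 14.2% and 5.2%. With so few windows at peaks these counts describe the windows, and no match says only that these letters are not in that window.

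By the authors' annotation the 983 peaks lay away from gene starts. The median distance to the nearest start site was 23.9 kb, with quartiles of 10.3 and 53.9 kb and a maximum of 463228 bp. No peak lay closer than 3001 bp to the start the authors used, and neither did any peak of the other gained TFEB classes. Binding close to those starts is thus missing from the deposited lists. Other annotated starts were not avoided: 9 RefSeq start windows overlapped one of the 983 peaks, and a window of Tmem144 covered 88.5% of its peak. Of the 983, 516 (52.5%) lay in introns and 421 (42.8%) between genes. Another 19 lay at transcript ends, 13 in exons, 11 in 3' UTRs, 2 in non-coding transcripts and 1 in a 5' UTR. The share in introns was 51.0% over all gained TFEB peaks, and the median distance 27.5 kb. The peaks with TFE3 and DOT1L together had the same median distance, 23.9 kb, and those with TFEB alone 29.4 kb. Peaks were found on 20 chromosomes, most of all on chromosome 2 with 96.

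The rule required overlap with TFE3, so the extent of that overlap describes the selection. The median overlap was 222 bases, or 89.1% of the TFEB peak, and the 2 centres lay a median of 15 bp apart. In 973 of 983 peaks the centres were within 100 bp, and the smallest overlap was 43 bases. The absence of gained DOT1L binding was less clear-cut. The nearest gained DOT1L peak was 8 bp away at the least and 33.3 kb away at the median. It lay within 100 bp for 6 peaks, within 1000 bp for 91 and within 10000 bp for 314. On the other side of the rule, 2 of the 869 peaks with DOT1L overlapped it by no more than 50 bases, and 2 of the 2477 TFEB-only peaks had a gained TFE3 peak within 50 bp. Of the 820 nearest genes, 423 (51.6%) were also the nearest gene of some gained DOT1L peak elsewhere, and 397 were not.

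**Figure D1:**
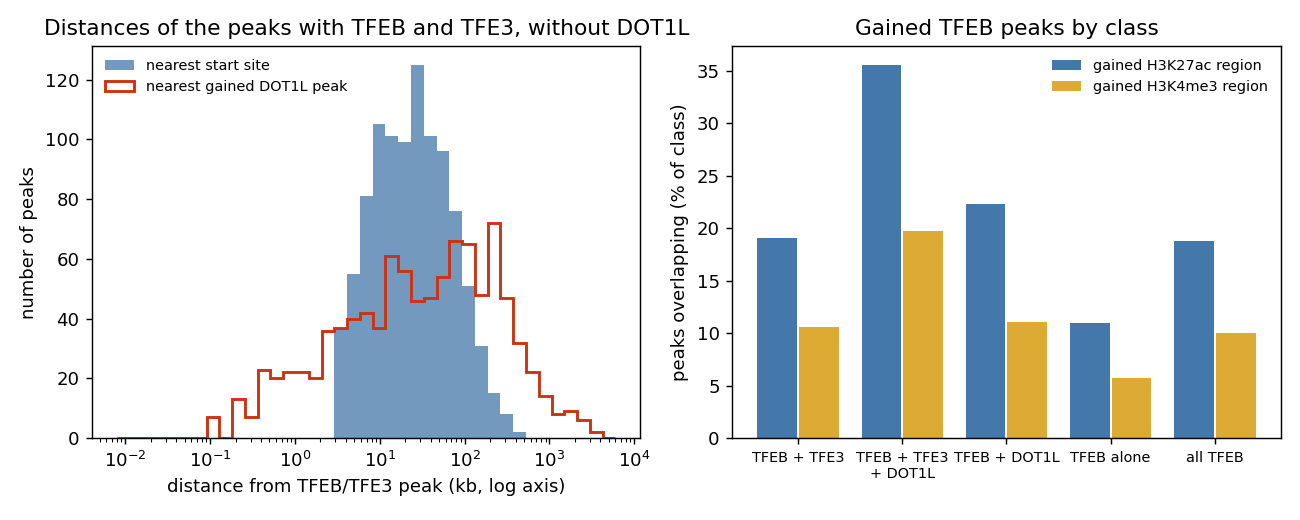
Left, histograms of the distance from each of the 983 peaks to the nearest gene start and to the nearest gained DOT1L peak, on log axes in kb. Right, bars of the percent of peaks in each class of gained TFEB peaks that overlap a region of gained H3K27ac or gained H3K4me3, from 0; the peaks with TFE3 and no DOT1L stand at 19.1% and 10.6%, below the class with TFE3 and DOT1L (35.6% and 19.7%) and above TFEB alone (11.0% and 5.77%).

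H3K27ac marks active enhancers and promoters, and H3K4me3 marks active promoters and some strong enhancers. A region of gained H3K27ac overlapped 188 of the 983 peaks (19.1%) and a region of gained H3K4me3 overlapped 104 (10.6%), with 75 overlapping both. The shares were 35.6% and 19.7% where DOT1L was gained too, 11.0% and 5.77% for TFEB alone, and 18.8% and 10.0% over all gained TFEB peaks. Overlap with a region of reduced H3K27ac or a reduced DOT1L peak occurred once each, and with reduced H3K4me3 in 0 peaks. Peaks are not replicates, so these shares carry no test.

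In the 230 gained H3K27ac windows of 2000 bp that touched these peaks, the median normalised tag count was 50.8, 59.06 and 52.67 in the PBS libraries and 144.2 and 147.9 in the MSUc libraries, all taken at 5 hours per the file headers. The median log2 change there was 1.43 in the authors' deposited table. In the 701 windows at TFEB peaks with DOT1L the PBS medians were lower, 34.76, 39.71 and 34.21, with MSUc medians of 114.8 and 123.9. In the 136 H3K4me3 windows the medians were 30.2 and 30.46 in PBS and 93.99 and 83.97 with MSUc. Ugcg, the enzyme that makes glucosylceramide, lay nearest one of the largest H3K27ac gains, with 25.4, 36.66 and 12.6 tags in PBS and 159.6 and 168.6 with MSUc. These windows were deposited because the authors called them gained, so their rise describes the selection.

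A small number of textbook lysosomal genes were nearest to these peaks. Of the 24940 genes measured 3.29% were nearest a peak, and of the 12350 genes tested at 5 hours 4.91%. Of 48 listed lysosomal enzymes and membrane proteins 4 were (8.33%), among them Ctsl (cathepsin L), Hexa (a lysosomal hydrolase subunit) and Psap (prosaposin). Of 18 V-ATPase subunits, the pump that acidifies lysosomes, 2 were (11.1%): Atp6v0a1 and Atp6v0e. Fnip2, a folliculin partner, had 5 of the peaks, and Rheb, the activator of mTORC1, had 1. No gene of 27 autophagy genes was nearest a peak. Binding close to the starts the authors used is missing from the lists, so it could not be counted for any of these genes. Of the MiT/TFE genes Tfeb itself had 1 peak, in its first intron at chr17:47757144-47757397, 19339 bp from the start. The immediate early factors Egr3, Fos, Jun, Klf4, Klf10 and Dusp4, 6 of 34 listed (17.6%), were nearest a peak. So were Dot1l and its elongation partners Aff1 and Ell, 3 of 18.

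Most nearest genes had a single peak, 691 of 820, while 105 had 2 and 24 had 3 or more. The most, 5 each, belonged to Fnip2 and the non-coding A530013C23Rik. With 4 each stood Tmem65, Zmiz1, Stum, Smad3 and Lyst. Several peaks near 1 gene share that gene, so genes and not peaks are counted in what follows. The nearest gene is a naming rule, not evidence that a peak acts on it.

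Across the 66 RNA libraries the depth was 2.12 M to 22.1 M reads (median 11.25 M), recovered from the TPM values. Only low values were checked, and at least 99.94% of these in each library were whole multiples of 1 read. The values of a library summed to between 530073 and 560407 and were taken to be TPM. All 10 macrophage markers were expressed in every group, at a summed 11500 to 33900 TPM per library. Summed markers stayed at or below 40.4 TPM for dendritic cells, 29.9 for mast cells, 25.8 for lymphocytes and 10.4 for red cells. Neutrophil markers ran from 1.57 to 1660 TPM and stromal markers from 2.3 to 813. In bulk RNA, fewer cells of a type and less RNA per cell cannot be told apart. A gene was tested if enough libraries reached 1 TPM to fill the smallest group of the experiment, and a change was called at a Benjamini-Hochberg adjusted p under 0.05 over all genes with limma. About 605 of the 820 nearest genes passed that filter in each experiment. All changes below are log2 differences of TPM + 1, which understate the change of low genes, with their standard errors.

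Genes near these peaks answered the crystals early and mostly upward. At 30 minutes 17 of 606 tested nearest genes were higher with MSUc (2.81%, against 0.68% of all genes tested) and 0 were lower (0% of all genes). At 1 hour 37 were higher (6.11%, against 2.33%) and 3 lower (0.495%, against 0.947%). At 2 hours 170 were higher (28.1%, against 11.2%) and 91 lower (15%, against 22.3%). At 5 hours 228 were higher (37.6%, against 16.4%) and 127 lower (21%, against 32.9%), with a median log2 difference of 0.206, against -0.231 over all genes. The early rise was not particular to this class. Near gained TFEB peaks with TFE3 and DOT1L, with DOT1L without TFE3 and with neither, 2.23%, 2.27% and 1.86% were higher at 30 minutes. At 1 hour these shares were 7.64%, 8.5% and 6.67%, and at 2 hours 38.9%, 36.3% and 25.7%. The 10 minute libraries were not tested. The 30 minute count rests on few libraries: it was 9 without PBS replicate 1, 9 without MSUc replicate 1 and 6 without MSUc replicate 2. It was 1 when only the compared groups were fitted.

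The split between rise and fall depended on scaling. With median-of-ratios scaling, which sets the median gene near 0, the median of all genes moved up by 0.154 at 2 hours, 0.22 at 5 hours and 0.191 in the Tfe3WT cells. At 5 hours 291 nearest genes then rose (47.9%, against 24.9% of all genes) and 76 fell (12.5%, against 20.8%). At 2 hours 215 rose (35.4%, against 16.5%) and 49 fell (8.06%, against 12.1%). Values below are on the TPM scale as deposited, and of 76 genes named here and called at 5 hours 70 were called with that scaling too, all 76 with the same sign.

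**Figure D2:**
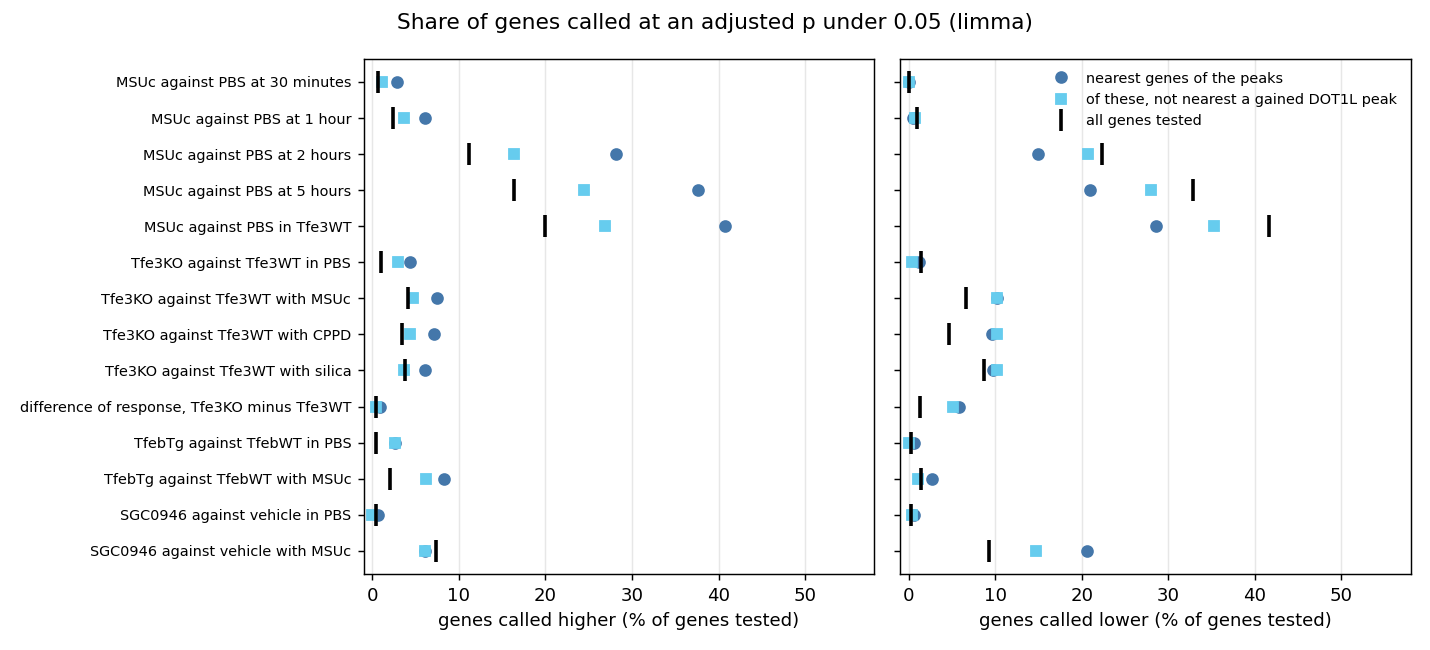
Percent of genes called higher (left) or lower (right) in 14 comparisons, for all nearest genes of the peaks, for nearest genes that are nearest no gained DOT1L peak, and for all genes tested. At 5 hours 37.6% of nearest genes were higher against 16.4% of all genes, and with SGC0946 under MSUc 20.6% were lower against 9.24%.

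The fastest responses belonged to immediate early and inflammatory genes. Egr3, a zinc finger factor of the early growth response family, read 0.64 and 1.09 TPM in PBS and 42.45 and 42.34 TPM with MSUc at 30 minutes, a log2 difference of 4.55 ± 0.26, adjusted p = 1.51e-06. It stood at 85.28 and 77.87 TPM at 1 hour against 0.23 and 1 in PBS, and was down to 2.84 and 3.52 TPM at 5 hours. Its peak lay 23105 bp upstream. Fos, an AP-1 subunit, read 120.79 and 166.84 TPM in PBS and 549.03 and 572.56 TPM at 30 minutes (1.97 ± 0.21, adjusted p = 0.000309), and 156.38 and 177.03 TPM at 5 hours, inside the range of the PBS libraries of that time (132.92 and 189.78). Jun rose by 1.09 ± 0.16 at 30 minutes and by 0.89 ± 0.16 at 5 hours. Both Egr3 and Fos were thus highest within the first hour, and the MSUc and PBS libraries did not overlap at 30 minutes for either. Without PBS replicate 1 or MSUc replicate 2 at 30 minutes Jun was no longer called.

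Ccl7, a chemokine that draws monocytes, climbed from 9.4 and 4.54 TPM in PBS to 307.11 and 419.22 TPM with MSUc at 1 hour (5.57 ± 0.73, adjusted p = 0.000523). At 5 hours it read 63.07 and 174.33 TPM against 9.65 and 4.95 in PBS. Its peak lay 4010 bp upstream at chr11:82041576-82041828. Tnfaip3, which encodes the NF-kappaB brake A20, went from 16.11 and 19.49 TPM to 173.67 and 189.76 TPM at 5 hours (3.29 ± 0.15, adjusted p = 8.7e-09), and had already risen by 1.75 ± 0.15 at 30 minutes. Kdm6b, a demethylase of histone H3 lysine 27, read 3.22 and 2.98 TPM in PBS and 65.59 and 66.18 TPM with MSUc at 2 hours. At 5 hours its difference was 3.59 ± 0.17, adjusted p = 1.26e-08. From 30 minutes on, every MSUc library was above every PBS library of the same time in each of these genes, while at 10 minutes the groups overlapped.

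Whole lists put these members in context at 5 hours. Of 34 immediate early factors 27 rose and 3 fell (median 1.67), and of the 6 near a peak 5 rose. Of 27 tested cytokines and chemokines 20 rose and 3 fell (median 2.20), and both nearest genes rose. Of 34 NF-kappaB and TLR signalling genes 17 rose and 6 fell (median 0.69), and of the 4 nearest genes 3 rose: Tnfaip3, Traf1 and Tnip1, which rose by 1.05. These lists were drawn up with earlier results of these data known.

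**Figure D3:**
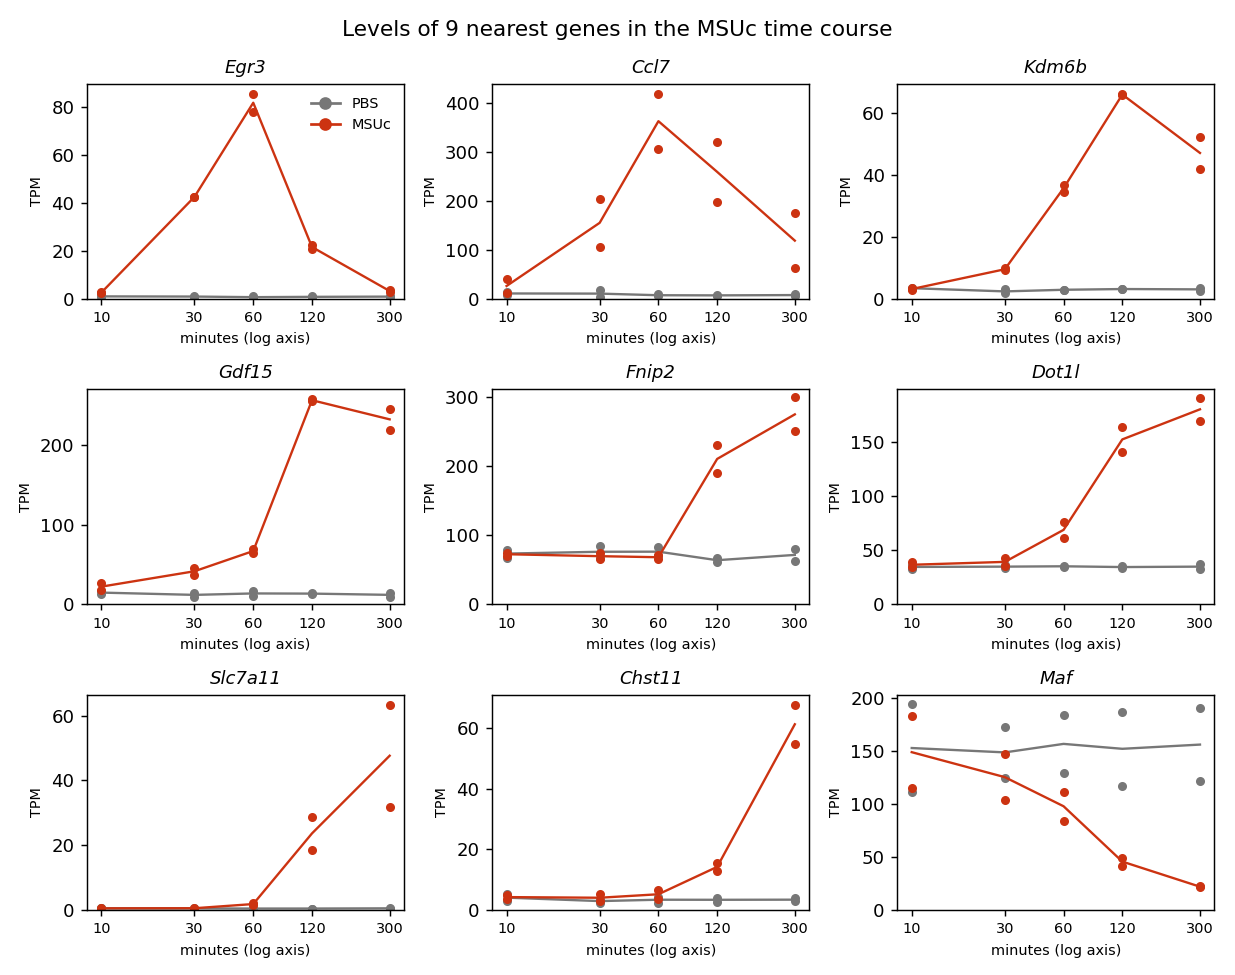
TPM of 9 nearest genes at 10 and 30 minutes and 1, 2 and 5 hours on a log time axis, with 2 points per group (PBS and MSUc) and lines through the means. Egr3 peaks at 1 hour and is down to 2.84 and 3.52 TPM at 5 hours, Slc7a11, Gdf15 and Chst11 are highest at 2 or 5 hours, and Maf falls.

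Stress and antioxidant genes made large late rises. Slc7a11, the cystine importer that feeds glutathione synthesis, read 0.3 and 0.51 TPM in PBS and 63.38 and 31.89 TPM with MSUc at 5 hours (5.04 ± 0.28, adjusted p = 3.61e-08). Its peak lay 162302 bp from the start, in a region of gained H3K4me3. Gclc, the catalytic subunit of the rate-limiting enzyme of glutathione synthesis, read 14.64 and 19.99 TPM and 256.03 and 114.97 TPM (3.25 ± 0.44, adjusted p = 6.3e-05), with its peak 3788 bp upstream at chr9:77750581-77750913. In both genes MSUc replicate 1 was far above replicate 2, and both stayed above the PBS libraries. Gdf15, a stress hormone of the TGF-beta superfamily, went from 14.01 and 9.33 TPM to 218.78 and 246.01 TPM (4.23 ± 0.25, adjusted p = 7.21e-08). Of 20 listed NRF2 targets 12 rose and 0 fell (median 1.80), and of 17 tested genes of the integrated stress response 11 rose and 0 fell (median 1.6).

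Genes for sugar and lipid handling were near these peaks too. Chst11, a sulfotransferase that builds chondroitin sulfate, rose from 2.7 and 3.9 TPM to 67.9 and 54.86 TPM (3.86 ± 0.35, adjusted p = 1.89e-06). Its peak, 27031 bp upstream at chr10:82958352-82958581, overlapped gained H3K27ac and gained H3K4me3. Plpp3, a lipid phosphate phosphatase, rose from 1.67 and 0.75 TPM to 35.61 and 32.88 TPM (4.03 ± 0.25, adjusted p = 1.07e-07). Pfkfb3, which makes the strongest activator of glycolysis, rose by 1.75 ± 0.21 and Ldha, lactate dehydrogenase A, by 0.94 ± 0.09. Of 26 tested genes of glycolysis and hypoxia 19 rose and 2 fell (median 0.81). Of 26 tested genes of lipid and cholesterol handling 6 rose and 6 fell. Of the 3 lipid genes near a peak Soat1, which esterifies cholesterol, rose by 0.39 ± 0.07, while Abcg1 and Fabp5 were not called.

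The genes of the TFEB circuit itself moved in different ways. Fnip2, part of the folliculin complex that governs TFEB through RagC and RagD, read 63.25 and 79.62 TPM in PBS and 300.02 and 250.65 TPM with MSUc (1.94 ± 0.16, adjusted p = 7.81e-07). The closest of its 5 peaks lay in its first intron at chr3:79542585-79542839, in gained H3K27ac. Mcoln2, a lysosomal cation channel of the mucolipin family, rose from 18.2 and 13.62 TPM to 114.53 and 77.5 TPM (2.51 ± 0.28, adjusted p = 1.08e-05). Rheb rose by 0.65 ± 0.12. Tfeb read 42.33 and 44.03 TPM in PBS and 42.33 and 33.54 TPM with MSUc, and its difference of -0.19 ± 0.12 was not called (adjusted p = 0.199). Of 24 tested folliculin, Rag and mTORC1 regulators 9 rose and 10 fell, and with median-of-ratios scaling 11 rose and 8 fell, so that list has no fixed direction.

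Among lysosomal genes the pump subunits near a peak rose and Hexa fell. Atp6v0e rose from 272.31 and 277.3 TPM to 378.28 and 396.18 TPM (0.49 ± 0.07, adjusted p = 0.000101) and Atp6v0a1 by 0.41 ± 0.15, adjusted p = 0.0348, and of 18 V-ATPase subunits 15 rose and 0 fell (median 0.55). Hexa read 829.3 and 831.8 TPM in PBS and 643.59 and 724.14 TPM with MSUc (-0.28 ± 0.08, adjusted p = 0.0138). It was not called with median-of-ratios scaling (-0.03). Ctsl and Psap were not called, and the whole list of 48 had 9 higher and 13 lower, or 12 and 7 with median-of-ratios scaling. Without MSUc replicate 1 or PBS replicate 1 the calls of Atp6v0a1 and Hexa were lost, and that of Hexa also without PBS replicate 2.

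Dot1l was among the risen genes although its own peak overlapped no gained DOT1L peak, by the rule. It read 32.72 and 36.75 TPM in PBS and 191.2 and 169.66 TPM with MSUc at 5 hours (2.34 ± 0.12, adjusted p = 2.72e-08), after a rise of 0.94 ± 0.12 at 1 hour. The peak lay in its first intron, 8572 bp from the start at chr10:80763660-80763890, in both gained marks, with a gained DOT1L peak 538 bp away. Aff1, an AF4-family scaffold of the super elongation complex, rose from 31.11 and 29.33 TPM to 68.83 and 62.19 TPM (1.09 ± 0.13, adjusted p = 2.01e-05). Ell, an elongation factor, rose by 0.48 ± 0.09. Of 18 listed genes of DOT1L and elongation complexes 8 rose and 2 fell (median 0.28).

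Transcription factors and receptors of resting macrophages fell. Maf, a factor of tissue macrophage identity, read 121.29 and 190.68 TPM in PBS and 21.12 and 22.22 TPM with MSUc (-2.76 ± 0.35, adjusted p = 3.26e-05). Its peak was far from the start, 278699 bp, and the next gained DOT1L peak was 1464.4 kb away. Nfatc2 fell from 18.19 and 19.46 TPM to 3.03 and 4.44 TPM (-2.08 ± 0.12, adjusted p = 5.6e-08). Irf8, a factor of monocyte development, also fell (-1.23 ± 0.13), as did Tgfbr2, a TGF-beta receptor (-1.02 ± 0.17). Of 31 tested genes of macrophage lineage and receptors 19 fell and 2 rose (median -0.78), and with median-of-ratios scaling 13 fell and 5 rose. Other large falls were Arhgap9 (-1.82), St6gal1 (-1.74), Capn5 (-1.69), H2afv (-1.69) and Syt11 (-1.49). Syt11, a synaptotagmin, fell although its peak lay in one of the largest H3K27ac gains, a log2 change of 2.65 in the authors' deposited table.

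Direction at 5 hours varied within the 820 genes. Of the 135 tested genes with a peak in gained H3K27ac 50.4% rose and 8.89% fell, and of the 471 others 34.0% rose and 24.4% fell. Of the 275 tested genes nearest no gained DOT1L peak 67 rose (24.4%) and 77 fell (28.0%), with a median of -0.0419. Genes nearest a peak with TFEB, TFE3 and DOT1L together rose in 49.3% of 537 and fell in 15.6%, and those nearest TFEB alone rose in 35.6% of 1290. With a peak within 50 kb 39.1% of 471 rose, and beyond it 32.6% of 135. These groups share genes, and the differences between them were not tested.

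The comparison of libraries titled Tfe3WT and Tfe3KO asks what changes when TFE3 is lost. The Tfe3 transcript did not mark the groups well. In PBS it read 94.21, 97.1 and 103.96 TPM in Tfe3WT and 69.97, 66.66 and 68.39 TPM in libraries labelled Tfe3KO, and with MSUc 83.34, 79.7 and 83.15 and 87.31, 84.88 and 85.03 TPM, so it was lower in PBS and no lower with MSUc. Where a deletion lies relative to the counted transcript is not given. The 12 samples titled Tfe3WT also carry Tfe3KO in their genotype field, and groups follow the titles. The libraries labelled Tfe3KO and numbered 1 stood apart, with Xist at 57.1 TPM or more and at most 6.28 in all others. The Y chromosome gene Ddx3y read at most 1.96 TPM in them and at least 16.54 in all others. Xist also read 1.17 to 6.28 TPM in the other Tfe3KO libraries and at most 0.24 in Tfe3WT. What this contributes to the differences between the groups was not tested. Directions below are those of libraries labelled Tfe3KO against Tfe3WT.

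With MSUc in the Tfe3WT cells 247 of 605 nearest genes rose (40.8%, against 20% of all genes) and 173 fell (28.6%, against 41.6%), with a median of 0.0869 against -0.195. With median-of-ratios scaling 317 rose (52.4%, against 29.1%) and 119 fell (19.7%, against 28.2%). In libraries labelled Tfe3KO, against Tfe3WT and with MSUc in both, 45 nearest genes were higher (7.44%, against 4.1%) and 62 lower (10.2%, against 6.63%). In PBS 26 were higher (4.3%, against 0.985%) and 7 lower (1.16%, against 1.38%). With CPPD 43 were higher (7.11%, against 3.45%) and 58 lower (9.59%, against 4.64%). With silica 37 were higher (6.12%, against 3.77%) and 59 lower (9.75%, against 8.69%). Under median-of-ratios scaling silica gave 69 higher (11.4%, against 7.77%) and 29 lower (4.79%, against 5.22%), so the silica balance has no fixed direction. Without the libraries numbered 1 the MSUc counts were 33 higher and 56 lower, and those in PBS 37 and 11. The sum in PBS, 33, was 21 without Tfe3WT replicate 1 or 3, and 53, 17 and 16 without Tfe3KO replicates 1, 2 and 3. With CPPD the sum of 101 was 64 and 65 without Tfe3WT replicates 1 and 2, and 67 and 49 without Tfe3KO replicates 2 and 3. With silica the sum of 96 was 51 without Tfe3WT replicate 1 and 56 without Tfe3KO replicate 3. The lower share with MSUc was close to that near the other gained TFEB peaks. There it was 12.4% with TFE3 and DOT1L, 9.27% with DOT1L without TFE3 and 9.81% with neither.

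Neutrophil markers separated the groups of this comparison with MSUc and silica and overlapped with PBS and CPPD, and their part in it was not tested. Their summed level was 415 to 568 TPM in Tfe3WT and 231 to 351 in libraries labelled Tfe3KO with MSUc, 244 to 468 and 171 to 327 in PBS, 341 to 641 and 244 to 459 with CPPD, and 1250 to 1660 and 793 to 1090 with silica. Stromal markers summed to 433 to 594 TPM in Tfe3WT and 214 to 706 in libraries labelled Tfe3KO with MSUc, and overlapped. Lymphocyte markers separated the groups in PBS, at 13.8 to 17.4 TPM in Tfe3WT and 21.6 to 25.8 in libraries labelled Tfe3KO. They overlapped with each particle. Mast cell markers separated the groups with silica, at 10.5 to 11.5 and 7.83 to 9.51 TPM, and overlapped in the other treatments. The part of these markers was not tested either. No gene of these marker lists was a nearest gene.

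The peak of Tmem144, a membrane protein, lay 10249 bp upstream of the start the authors used, and its sequence is shown above. This gene had the largest fall with MSUc among nearest genes with a mean of at least 5 TPM. It read 5.57, 5.63 and 3.29 TPM in Tfe3WT with PBS and 14.92, 18.48 and 16.6 TPM with MSUc. In libraries labelled Tfe3KO it read 3.34, 3.77 and 4.36 and 5.34, 4.56 and 4.09 TPM. MSUc thus raised it in the Tfe3WT libraries, and the Tfe3KO libraries with MSUc stayed below every one of them, a difference of -1.64 ± 0.16, adjusted p = 9.27e-07. The difference between the MSUc responses was -1.39 ± 0.23, adjusted p = 0.00283. With CPPD the difference was -1.04 ± 0.16 and with silica -0.90 ± 0.16.

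Cnrip1, which binds the cannabinoid receptor CB1, read 13.62, 16.41 and 16.75 TPM in Tfe3WT and 7.61, 4.58 and 4.78 TPM in libraries labelled Tfe3KO with MSUc (-1.34 ± 0.16, adjusted p = 9.96e-06). Its peak lay 7471 bp upstream at chr11:17044335-17044591. Wdr7, a partner of the V-ATPase in acidification, read 20.09, 20.79 and 19.64 and 9.25, 7.86 and 6.33 TPM (-1.28 ± 0.12, adjusted p = 2.81e-07), and was lower in PBS as well (-0.48 ± 0.12). Mfsd11, a member of the major facilitator superfamily, read 63.16, 56.76 and 52.48 and 35.71, 30.64 and 33.05 TPM (-0.78 ± 0.09, adjusted p = 1.19e-05). In these 3 genes no Tfe3KO library with MSUc reached the lowest Tfe3WT library. The PBS call of Wdr7 was lost without any 1 of its libraries other than Tfe3KO replicate 1.

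Pfkfb3 was lower with MSUc and silica in libraries labelled Tfe3KO. With MSUc it read 57.01, 54.73 and 54.01 TPM in Tfe3WT and 28.87, 29.95 and 32.45 TPM in libraries labelled Tfe3KO (-0.84 ± 0.08, adjusted p = 9.01e-07), and with silica 28.24, 29.03 and 29.36 and 17.24, 17.92 and 19.64 TPM (-0.63 ± 0.08). With CPPD it read 54.89, 50.07 and 50.35 and 48.74, 50.3 and 60.08 TPM, and the difference of 0.03 ± 0.08 was not called. Whether the particles differ was not tested for this gene.

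**Figure D4:**
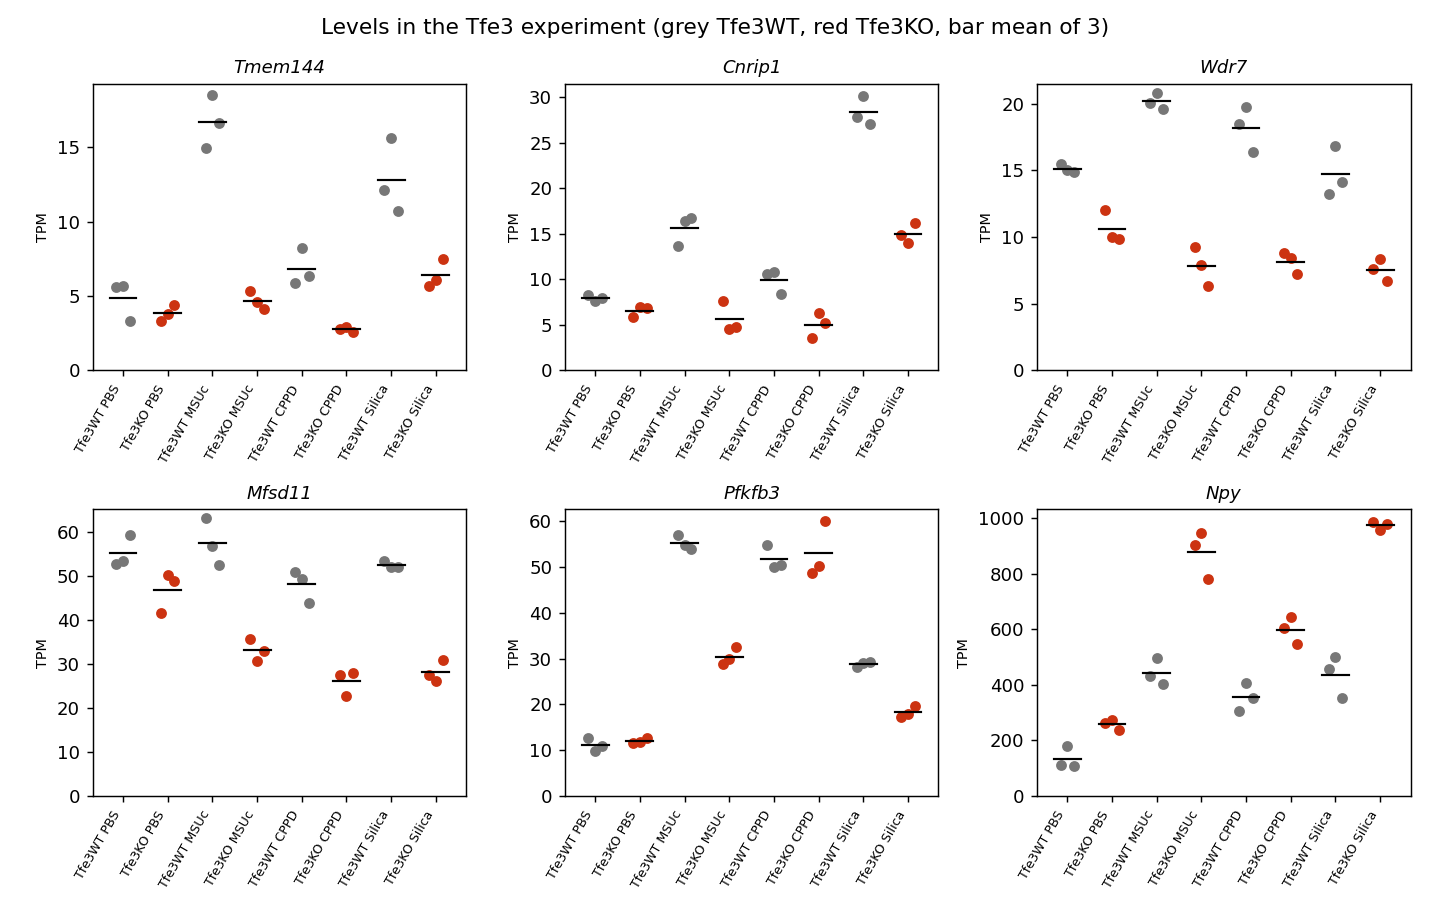
TPM of 6 nearest genes in each of the 24 libraries titled Tfe3WT or Tfe3KO, by particle, with a line at each group mean. With MSUc Tmem144 lies between 14.92 and 18.48 TPM in Tfe3WT and between 4.09 and 5.34 in libraries labelled Tfe3KO, and Npy lies higher in the latter in every treatment.

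Npy, the gene of neuropeptide Y, went the other way. It read 112.47, 180.11 and 107.51 TPM in Tfe3WT and 263.82, 274.09 and 235.68 TPM in libraries labelled Tfe3KO with PBS (0.98 ± 0.16, adjusted p = 0.00119). With MSUc it read 431.96, 496.26 and 404.4 and 903.62, 945.55 and 782.39 TPM (0.98 ± 0.16, adjusted p = 0.000296), and the groups did not overlap in either. Abcg1, a cholesterol exporter, was higher by 0.64 ± 0.17 with MSUc and 0.66 ± 0.17 with CPPD. Adgrl2, an adhesion G protein-coupled receptor, was higher by 0.76 ± 0.12 with MSUc, and the heparan sulfate carrier Sdc1 by 0.62. Tfeb itself was higher by 0.34 ± 0.09, adjusted p = 0.0129 with MSUc, at 45.02, 41.7 and 41.18 TPM against 30.49, 33.95 and 36.07, and Dot1l by 0.29 ± 0.09. With MSUc the call of Abcg1 was lost without replicate 3 of either group, that of Tfeb without replicate 1 of either group, and that of Dot1l without replicate 1 or 3 of either group. With CPPD the call of Abcg1 was lost without Tfe3WT replicate 3 or Tfe3KO replicate 2 or 3.

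Lysosomal genes as a list fell with the Tfe3KO label, and 4 of its genes were near these peaks. With MSUc 29 of 48 lysosomal genes were lower and 0 higher (median -0.38), and of 18 V-ATPase subunits 10 were lower and 1 higher (median -0.29). Hexa was lower with CPPD (-0.19 ± 0.06) and silica (-0.20 ± 0.06) and was not called with MSUc, and with median-of-ratios scaling it was called in neither. The nearest V-ATPase genes Atp6v0a1 and Atp6v0e were not called. Of 27 autophagy genes 7 were lower and 0 higher. The call of Hexa was lost without any 1 library with CPPD other than Tfe3WT replicate 3, and without replicate 2 or 3 of either group with silica.

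Each particle had its own Tfe3WT and Tfe3KO libraries, but libraries with the same number may share a source across particles, so the particles are not independent tests. The deviations of same-numbered libraries from their group means correlated at 0.078 to 0.449 between treatments in Tfe3KO and at 0.015 to 0.25 in Tfe3WT, and a library matched its own number best in 17 and 15 of 18 pairings. In all 3 particles 26 nearest genes were lower in the Tfe3KO libraries (4.3% of 605, against 2.88% of all genes) and 5 were higher (0.826%, against 0.563%). The lower ones included Adamtsl5, Cbr1, Cnrip1, Gas6, Lhfpl2, Mfsd11, Ndst1, Tmem144, Vps8 and Wdr7. Cln8, a membrane protein of the endoplasmic reticulum that helps lysosomal enzymes leave it, was another. The higher ones were Baiap2, Bcl2l11 (the cell death gene BIM), Chmp1b, Myof and Npy.

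The MSUc response itself differed between the groups in 40 nearest genes. The difference, Tfe3KO minus Tfe3WT, was positive in 5 (0.826%, against 0.414% of all genes) and negative in 35 (5.79%, against 1.31%). The largest negative ones were Tmem144, Cnrip1 (-1.10), Pkdcc (-1.02), Pfkfb3 (-0.95) and Snx29 (-0.95). Fnip2 was among them (-0.61 ± 0.13, adjusted p = 0.0166), as was Soat1 (-0.42). Fnip2 was higher in the Tfe3KO libraries in PBS (0.41 ± 0.09), so its smaller response began from a higher level. With the number as a replicate block within each genotype 63 genes were called, 12 positive and 51 negative. The count was 48 without the Tfe3KO libraries numbered 1, and it was 24 without Tfe3KO PBS replicate 2, 21 without replicate 3, 22 without Tfe3WT MSUc replicate 2, and 21 and 25 without Tfe3KO MSUc replicates 2 and 3. The call of Pkdcc was lost without any 1 of its 12 libraries other than replicate 1 of Tfe3WT PBS, Tfe3WT MSUc and Tfe3KO PBS, and that of Fnip2 without replicate 2 of either MSUc group or replicate 3 of either PBS group. In PBS the call of Fnip2 was lost without Tfe3WT replicate 3 or Tfe3KO replicate 2 or 3.

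The Tfeb transgene asks what more TFEB does. Tfeb read 44.43 and 43.68 TPM in TfebWT and 86.52, 79.97 and 75.12 TPM in TfebTg with PBS, and 28.91, 30.71 and 25.49 and 200.91, 298.94 and 240.32 TPM with MSUc. The transgene thus separated the groups in both, by 0.85 ± 0.14 and 3.06 ± 0.13, and Tfeb is one of the nearest genes counted next. The TfebWT MSUc library numbered 3 carries PBS in its treatment field. With MSUc 50 of 604 nearest genes were higher in TfebTg (8.28%, against 2.04% of all genes) and 16 lower (2.65%, against 1.43%). In PBS 16 were higher (2.65%, against 0.459%) and 4 lower (0.662%, against 0.259%). If the doubted library is placed with PBS the calls were 9 with MSUc and 3 in PBS. Stromal markers summed to 13 to 33.5 TPM in TfebWT and 7.32 to 9.25 in TfebTg libraries. Mast cell markers summed to 4.9 to 5.37 TPM in TfebWT and 15.8 to 18.1 in TfebTg with PBS, and to 7.51 to 8.41 and 27.2 to 29.9 with MSUc. Lymphocyte markers summed to 6.66 to 12.6 and 17 to 20.3 in PBS, and to 4.03 to 6.34 and 11.4 to 17.8 with MSUc. Macrophage markers summed to 16800 to 17100 and 13700 to 14300 in PBS, and to 13500 to 13800 and 11500 to 12000 with MSUc. These 4 lists separated the genotypes in both treatments, and their part in the counts was not tested. The PBS sum of 20 fell to between 8 and 13 without any 1 of its 5 libraries, and the MSUc sum of 66 to 36 without TfebWT replicate 1 and 39 without TfebWT replicate 3. In PBS the call of Tfeb was lost without TfebWT replicate 1 or 2 or TfebTg replicate 1 or 2.

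Smad3, a transducer of TGF-beta signalling with 4 of the peaks, answered the crystals in the transgenic cells. It read 3.54 and 3.71 TPM in TfebWT with PBS, 3.24, 3.89 and 3.63 in TfebWT with MSUc, 3.94, 3.72 and 3.02 in TfebTg with PBS and 9.07, 12.45 and 10.44 in TfebTg with MSUc. The last group lay above the 3 others, with a difference of 1.34 ± 0.16, adjusted p = 0.000739 from TfebWT with MSUc. Dennd2a, an exchange factor for a Rab GTPase, read 2.36, 3.48 and 4.67 TPM in TfebWT and 18.12, 18.13 and 14.18 TPM in TfebTg with MSUc (2.01 ± 0.21, adjusted p = 0.000317). Rapgef3, the cyclic AMP sensor EPAC1, was higher by 1.59 ± 0.22 and Plpp3 by 1.16. The interaction of transgene and MSUc was not tested for these genes. With the doubted library placed in PBS Smad3 and Dennd2a were still called, and Rapgef3 and Plpp3 were not.

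Gadd45a and Kdr were higher with the transgene in both treatments, and other genes in 1 of them. Gadd45a, a stress gene of growth arrest, read 27 and 32.14 TPM in TfebWT and 64.09, 61.57 and 55.61 TPM in TfebTg with PBS (1.01 ± 0.14, adjusted p = 0.00439), and 31.04, 23.22 and 30.61 and 73.93, 66.92 and 76.3 TPM with MSUc (1.33 ± 0.12, adjusted p = 0.000121). Kdr, a VEGF receptor, was higher by 1.21 in PBS and 1.29 with MSUc. Mcoln2 was higher by 0.90 ± 0.10, adjusted p = 0.00151 in PBS, at 55.47, 59.55 and 67.86 TPM against 31.13 and 33.16. Of the 3 lipid genes near a peak Fabp5, a fatty acid carrier, was higher by 0.54 ± 0.09 and Soat1 by 0.41 ± 0.09 with MSUc. The PBS call of Gadd45a was lost without TfebWT replicate 1, and the call of Soat1 without any 1 MSUc library other than TfebTg replicate 2. With the doubted TfebWT library placed in PBS, Mcoln2, Fabp5 and Soat1 were not called.

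Gclc was lower in the transgenic cells with MSUc, at 124.19, 105.33 and 101.83 TPM against 206.86, 199.7 and 203.19 (-0.88 ± 0.10, adjusted p = 0.00059), and overlapped between genotypes in PBS (26.77 and 25.31 and 21.7, 22.49 and 27.05 TPM). Of 20 NRF2 targets 8 were lower and 1 higher (median -0.36). Also lower were Fos (-0.77 ± 0.09), Trib1, a scaffold of protein degradation (-0.86), and Id3, an inhibitor of helix-loop-helix factors, at 29.11, 53.9 and 34.15 TPM against 78.76, 69.26 and 81.66 (adjusted p = 0.0123). Of 34 immediate early factors 10 were lower and 2 higher. Of 48 lysosomal genes 1 was higher and 0 lower with MSUc, and none of the 4 near a peak was called. In PBS 0 were higher and 1 lower, Ctsl, at 586.17, 595.7 and 574.18 TPM against 780.33 and 707.16 (-0.34 ± 0.06, adjusted p = 0.0371), a call lost without any 1 of the 5 libraries. The call of Id3 was lost without TfebWT replicate 1 or 3 or TfebTg replicate 3. With the doubted library placed in PBS none of these 4 lower genes was called.

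**Figure D5:**
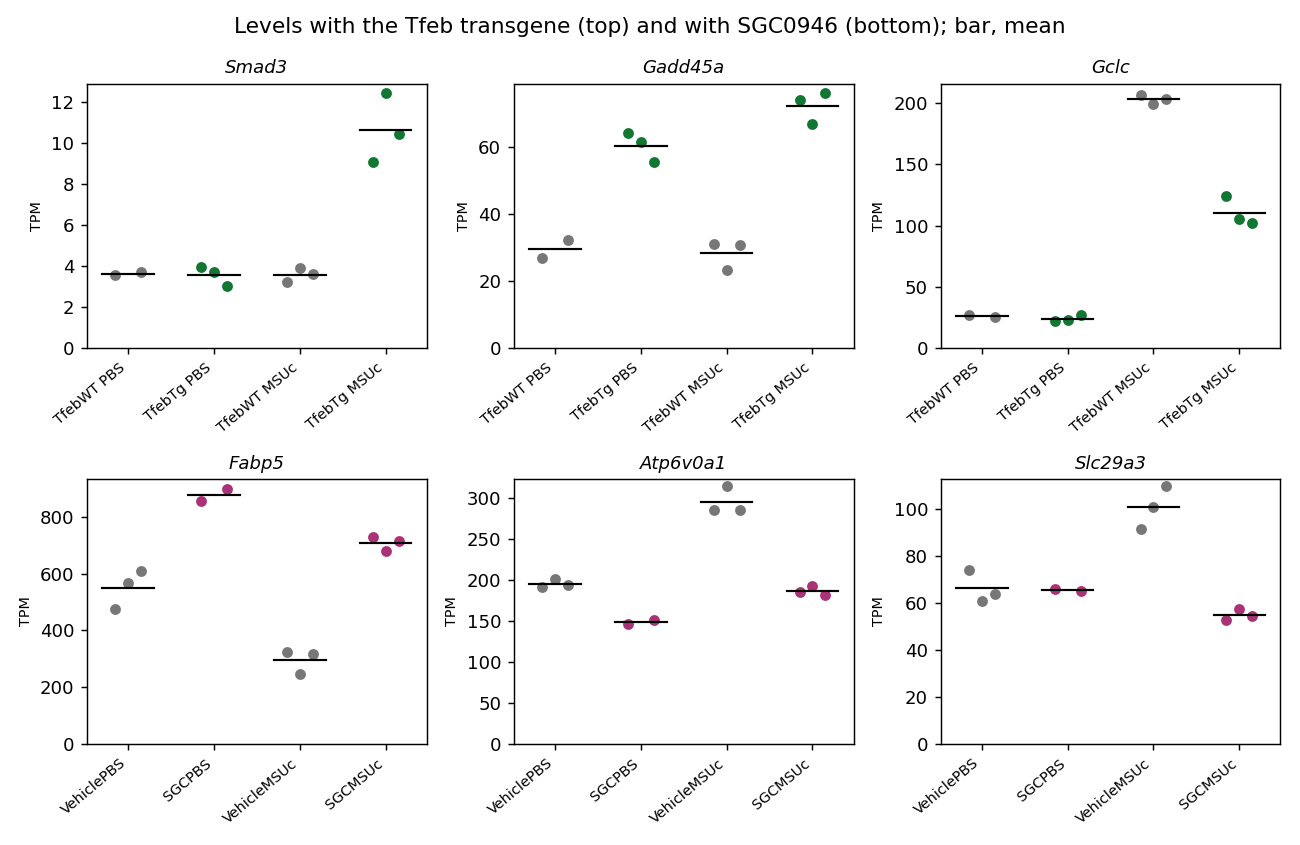
TPM of 3 nearest genes in the 11 TfebWT and TfebTg libraries (top) and of 3 in the 11 vehicle and SGC0946 libraries (bottom), each point a library and each line a group mean. Smad3 stands at 9.07 to 12.45 TPM only in TfebTg with MSUc, and Fabp5 at 679.19 to 729.43 TPM with SGC0946 and MSUc against 246.25 to 325.18 TPM with vehicle.

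SGC0946 asks what the methyltransferase activity of DOT1L contributes. Although the peaks lack gained DOT1L binding, 125 of 607 nearest genes were lower with the inhibitor under MSUc (20.6%, against 9.24% of all genes) and 37 were higher (6.1%, against 7.39%). The lower share was not particular to this class. It was 19.9% near gained TFEB peaks with TFE3 and DOT1L, 19.9% near those with DOT1L without TFE3 and 17.8% near those with neither. Among the 278 nearest genes tested that are nearest no gained DOT1L peak 41 were lower (14.7%) and 17 higher (6.12%). In PBS 4 were lower (0.659%, against 0.235%) and 4 higher (0.659%, against 0.438%). The response to MSUc differed between inhibitor and vehicle in 0 nearest genes with limma, where 0.0325% of all genes had a positive and 0% a negative difference. At an unadjusted p under 0.05 there were 100 of 607, of which 64 were negative. Over all genes there were 1388 of 12324, of which 693 were negative. The MSUc count was 99 without SGC0946 MSUc replicate 1 and 107 without replicate 3, and the PBS count fell to between 0 and 2 without any 1 of its libraries. Depth separated the MSUc groups, at 2.83 to 6.63 M reads with vehicle and 8.64 to 12.2 M with SGC0946. What depth contributes to the counts was not tested. The difference of responses was called in 1 gene without vehicle PBS replicate 1 or SGC0946 PBS replicate 2, in 3 without vehicle MSUc replicate 1 and in 2 without vehicle MSUc replicate 2.

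Atp6v0a1, a membrane subunit of the V-ATPase, read 285.03, 314.36 and 285.55 TPM with vehicle and 185.6, 192.94 and 181.32 TPM with SGC0946 under MSUc (-0.66 ± 0.05, adjusted p = 0.000124), and 190.67, 201.39 and 194.19 and 146.27 and 150.82 TPM in PBS (-0.39 ± 0.06, adjusted p = 0.029). Its peak lay 6197 bp upstream in gained H3K27ac, 94278 bp from the next gained DOT1L peak. Slc29a3, a nucleoside transporter of lysosomes, read 91.31, 100.63 and 109.61 and 52.67, 57.34 and 54.44 TPM under MSUc (-0.86 ± 0.09, adjusted p = 0.000361). In PBS it read 73.72, 60.78 and 63.7 and 65.83 and 64.73 TPM, inside the vehicle range. Psap, the precursor of the saposins, was lower in both (-0.45 ± 0.04 under MSUc and -0.23 ± 0.04 in PBS), and Ctsl was higher under MSUc (0.52 ± 0.07). Of 48 lysosomal genes 15 were lower and 5 higher under MSUc (median -0.14). The PBS calls of Atp6v0a1 and Psap were each lost without any 1 of the 5 PBS libraries.

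Some of the genes that MSUc raised were lower with the inhibitor. Chst11 read 171.94, 193.36 and 178.28 TPM with vehicle and 109.56, 110.64 and 107.22 TPM with SGC0946 under MSUc (-0.72 ± 0.08, adjusted p = 0.000385). Dot1l read 214.78, 241.7 and 215.37 and 158.17, 160.4 and 149.87 TPM (-0.52 ± 0.07, adjusted p = 0.00134), and Fnip2 (-0.41 ± 0.06) and Aff1 (-0.58 ± 0.07) were lower too. Of the 125 lower genes that could be set against the time course, 62 (49.6%) rose at 5 hours, which is 27.3% of the 227 that rose there, where 38.5% of all nearest genes tested in both rose. Over all genes 28.4% of those lower with the inhibitor rose at 5 hours, against 17.0% of all tested in both. These comparisons share no libraries.

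Fabp5 was higher with the inhibitor, going from 325.18, 246.25 and 317.53 TPM to 729.43, 679.19 and 716.31 TPM under MSUc (1.26 ± 0.11, adjusted p = 0.000135) and from 477.15, 567.78 and 609.69 to 857.11 and 901.35 TPM in PBS (0.68 ± 0.12, adjusted p = 0.0378). Npy was higher by 0.78 under MSUc and 0.55 in PBS. Atox1, a copper chaperone, was higher by 1.10 under MSUc and Cbr1, a carbonyl reductase, by 0.99. The counted transcripts of Fabp5, Npy, Atox1 and Cbr1 were 947, 558, 508 and 1076 bases long. Among genes lower under MSUc, those of Slc29a3 and Dnmt3aos were 5232 and 1381 bases. The part of transcript length was not tested. Maf, Tgfbr2 and Laptm5 were lower under MSUc (-0.62, -0.36 and -0.45), and each of them had also fallen with MSUc at 5 hours, although Laptm5 was not called there with median-of-ratios scaling (-0.17) or without MSUc replicate 1. The largest fall among genes with a mean of at least 5 TPM was that of Dnmt3aos (-1.03), an antisense gene of Dnmt3a whose reads cannot be told from its partner's where the strand of counting is not stated. In PBS the call of Fabp5 was lost without any 1 of the 5 libraries and that of Npy without either SGC0946 library. Under MSUc the call of Tgfbr2 was lost without SGC0946 replicate 1 or 3 and that of Dnmt3aos without SGC0946 replicate 1.

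Between the Tfe3 and Tfeb experiments, 10 nearest genes were lower with the Tfe3KO label and higher with the Tfeb transgene, both under MSUc: Fabp5, Fam219a, Lhfpl2, Ndst1, Rasa3, Sirpa, Soat1, Tbc1d10a, Tex2 and Ttyh2. They are 16.1% of the 62 lower genes and 20.0% of the 50 higher ones, where 8.46% of the 591 nearest genes tested in both were higher with the transgene. Over all genes 5.97% of those lower with the label were higher with the transgene, against 2.07%. Conversely 3 genes, Fos, Klf4 and Ywhag, were higher with the Tfe3KO label and lower with the transgene. No gene was lower in both, where 2.71% of nearest genes were lower with the transgene. These experiments share no libraries. With the doubted TfebWT library placed in PBS 1 of the 10 genes was still shared, Tex2, and 0 of the 3.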

How the data were processed

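The authors deposited lists of gained and reduced ChIP-seq peaks (TFEB, TFE3, DOT1L), tables of H3K27ac and H3K4me3 regions, and RNA-seq tables in TPM. Per the submitters' processing notes the tools include STAR and HOMER with mm10; versions are not given in the sources used here. Per the file headers the histone tables hold HOMER tag counts in 2000 bp windows, a signal normalised to 10000000 tags, with the authors' log2 changes, p-values and adjusted p-values. Peak scores were 0 throughout. Per the labels' protocols RNA libraries were poly-A selected and stranded.

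Peaks were joined by coordinates with an overlap of at least 1 base in Python 3.11.15 (pandas 2.3.3, numpy 2.4.6). TPM values were tested as log2(TPM + 1) with limma 3.58.1 in R 4.3.3 (trend), all groups of a table in 1 fit without a block, for genes that reached 1 TPM in at least the number of libraries in the smallest group. Adjustment was by Benjamini-Hochberg over all genes tested. On simulated data (2 against 2 libraries, 11452 genes) 100 of 100 genes changed 2-fold and 100 of 100 changed 4-fold were called, with 3 of 11252 unchanged genes. The simulation gave every gene the same log2 spread of 0.15 and changed only genes of at least 5 TPM. It checks the code and does not give the power in the real libraries, where the spread varies between genes. Whole reads, with a tolerance of 0.15, were recovered from TPM and length for depth only. No pair of libraries agreed within sampling noise. In the tables read, 9 columns of per-sample values were not used.

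Genes were named by rule: among called nearest genes with a mean of at least 5 TPM and groups that do not overlap (not required for differences of responses), the 10 largest rises and falls at 5 hours, the 5 largest in each direction elsewhere, up to 4 per gene list called at 5 hours, and the genes with most peaks. Short RNA genes were skipped, the values of 1 gene are not reported here, and Zmiz1 and genes named only as sharing calls or from lists were chosen after their values were seen. Sequences are shown for 7 of the 8 peaks with a RefSeq window, since no peak scores could rank them. The members and lists were chosen with earlier results of these data known. Alternatives were the pseudocount (0.1), no filter, median-of-ratios scaling, compared groups only, a replicate block, each library left out, other peak rules and other label readings.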

Additional observations from a re-analysis of the deposited data

Results flagged for a closer look

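The MSUc response differed between libraries labelled Tfe3KO and Tfe3WT by the interaction term of limma for 10 nearest genes that the naming rule picked. The response was smaller or turned in libraries labelled Tfe3KO for Tmem144 (-1.39, adjusted p = 0.00283), Cnrip1 (-1.10, 0.0128), Pkdcc (-1.02, 0.0443), Pfkfb3 (-0.95, 0.000241) and Snx29 (-0.95, 0.00351). It was larger for Adgrl2 (0.64, 0.0491), Myo1e (0.53, 0.0144), Basp1 (0.51, 0.0381), Gsap (0.47, 0.0193) and Numb (0.36, 0.0469). With median-of-ratios scaling Adgrl2, Basp1 and Numb were not called. Snx29 read 14.63, 11.54 and 14.68 TPM in Tfe3WT and 18.31, 17.18 and 17.85 TPM in libraries labelled Tfe3KO with PBS, and 16.5, 15.43 and 15.96 and 11.57, 10.85 and 8.86 TPM with MSUc, so the order of the groups turned with treatment. Myo1e, a myosin of phagocytic cups, turned the opposite way, at 181.52, 176.91 and 165.79 and 143.52, 133.87 and 146.87 TPM with PBS and 191.58, 171.17 and 174.12 and 224.03, 213.46 and 192.64 TPM with MSUc. Summed neutrophil markers separated these groups with MSUc and overlapped in PBS. Summed lymphocyte markers separated the groups in PBS and overlapped with MSUc. The part of these markers was not tested.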

How the results depend on the processing

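Counts of called nearest genes are sums of higher and lower. Fitting the compared groups only gave 1 at 30 minutes (17 in the full fit), 17 at 1 hour (40), 146 at 2 hours (261), 2 for Tfe3KO in PBS (33), 45 with silica (96), 14 for the difference of responses (40), 13 and 42 for TfebTg in PBS and with MSUc (20 and 66) and 0 for SGC0946 in PBS (8); fewer libraries estimate the spread there. Keeping genes nearest no gained DOT1L peak, a subset by construction, gave 3, 12, 102 and 144 along the time course, 171 in Tfe3WT, 9, 41, 40 and 38 for Tfe3KO in PBS and with MSUc, CPPD and silica, 15 for the difference, 7 and 20 for TfebTg, and 1 and 58 for SGC0946. With TfebWT MSUc replicate 3 placed in PBS the TfebTg counts were 3 and 9. TfebTg in PBS gave 11 within 50 kb. SGC0946 in PBS gave 5 with no filter, 5 with median-of-ratios scaling (3 higher and 2 lower) and 0 with the replicate block. Overlaps with reduced H3K27ac and reduced DOT1L were 0 for peak IDs that close with 2 or more, an alternative chosen after seeing the data. The cause was not tested where none is given.

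Leaving out each library in turn gave 6 to 12 at 30 minutes, 28 to 33 at 1 hour, 187 to 224 at 2 hours, 304 to 316 at 5 hours, 398 to 408 in Tfe3WT, 16 to 53 for Tfe3KO in PBS, 76 to 88 with MSUc, 49 to 77 with CPPD, 51 to 82 with silica, 21 to 54 for the difference, 8 to 13 and 36 to 57 for TfebTg, 0 to 2 and 99 to 163 for SGC0946, and 0 to 3 for its difference. The lowest came without Tfe3KO replicate 3 with CPPD, Tfe3WT replicate 1 with silica and TfebWT replicate 1 with MSUc. With the replicate number as a replicate block the counts were 15, 40, 256 and 353 along the time course, 433 in Tfe3WT, 45, 129, 112 and 117 for Tfe3KO, 47 for the difference, 18 and 64 for TfebTg, and 144 for SGC0946 with MSUc. Deviations of same-numbered libraries correlated at -0.054 to 0.23 in the Tfe3, -0.059 to 0.129 in the Tfeb and -0.039 to 0.044 in the SGC0946 experiment. For Tfe3KO against Tfe3WT the correlations were positive for numbers 1 and 2 in every treatment (0.028 to 0.23), and -0.054 to 0.001 for number 3. Whether the numbers pair libraries across genotypes or drug arms is thus not known. Within Tfe3KO and Tfe3WT they follow a shared deviation across treatments in most pairings; a replicate block within each arm, chosen after seeing the data, gave 442 in Tfe3WT, 63 for the Tfe3KO difference and 0 for the SGC0946 difference. In the time course they correlated at -0.659 to -0.501, and crossing the numbers gave 16, 39, 253 and 350. Of 471 calls of the genes picked by the naming rule, over all comparisons, 284 kept their call in every alternative, 187 lost it in at least 1, and 2 of these turned sign in 1: Ccl7 for TfebTg in PBS and Hexa for MSUc in Tfe3WT, neither given above. In all 183 alternatives stayed within 1.5 times and 69 moved further. Ranking by peak score and the motif over all peaks were not run. How depth, down to 2.12 M reads, bears on calls among low genes was not tested.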
